A study of Mus musculus with 20 samples.

Results

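Transient PTF-bound regions that were already accessible before induction are a set of 916 regions, of 42403 regions bound by GATA6 in the series. They were chosen by 4 deposited classes: GATA6 binding in the Transient cluster, binding of a pluripotency transcription factor (PTF: OCT4, SOX2 or ESRRB) at day 0, no SOX17 binding, and the accessible class of the day 0 ATAC-seq signal. The rule therefore used GATA6, PTF and SOX17 binding and the day 0 accessibility, and those are given here as descriptions only. The accessibility of the later groups was not part of the rule. By the study's methods, however, the GATA6 clusters were drawn from GATA6 binding at every time point. The Transient class thus used binding at the later times.

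Open chromatin was profiled by ATAC-seq, which uses Tn5 transposase to tag exposed DNA. KH2 ES cells of the C57BL/6 x 129/Sv genotype carried a doxycycline-inducible gata6 cassette, grew with LIF on MEF feeders, and received 1 µg/mL doxycycline, except for the untreated day 0 cells. By their titles there were 3 samples each of day 0, 8 h, 16 h, day 1 and day 2, and 2 samples of day 4. XEN cells, a line of extraembryonic endoderm (line X10, CD1 genotype, wild type), grew without LIF and were untreated (3 samples). Titles and treatment labels disagreed: 8 h was labelled 16 h of doxycycline, 16 h was labelled 24 h, day 1 was labelled 48 h and day 2 was labelled 72 h. The titles were followed. Feeders were depleted by adsorption before transposition, and the study's methods state that samples of a group came from independent cultures, which the labels do not record. The p-values measure the spread between the libraries recovered, none of which can be tied to a labelled culture. Expression of marker genes was not analysed here, and the cell types are those of the labels.

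The deposited values are averages of a group in RPM (reads scaled to library size), not divided by the width of a region. At 24753 regions, 562 of them in the set, the averages could be broken down into whole reads per library. Of the 16 libraries found, 15 had between 181.2 and 288.4 M reads, and 1 of the XEN libraries (XEN b) had 43.3 M. In that XEN library 1 read was worth 0.0231 RPM and the median region of the set held 4 reads, so its values move in coarse steps. XEN resolved into 2 libraries although 3 samples were labelled, and day 0 could not be resolved, so 8 h was the baseline of every test. The library letters a to c are arbitrary. In the 8 h, 16 h and day 1 groups alike, 1 library had a higher median signal than the others, as the values below show.

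OCT4 and SOX2 bind side by side on a composite DNA element and, with the nuclear receptor ESRRB, hold open many enhancers that keep ES cells pluripotent. GATA6 is the zinc finger factor that directs cells of the early embryo to primitive endoderm, the lineage that XEN cells represent in culture. It recognises a GATA core, whereas the composite element joins a SOX site to an octamer site.

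The sequences of 8 regions are shown because they hold the elements whose matches are counted next. Each is the 180 bases around the GATA6 summit of the region, on the forward strand of GRCm38 (mm10) as given by RefSeq, 5′ to 3′, and capitals mark the best deposited match to the OCT4:SOX2, GATA6 or ESRRB matrix where it lies in the window. The first 4 lie near genes of the pluripotency network: an intron of the non-coding gene Sox2ot downstream of Sox2 (chr3:34668519-34668698, OCT4:SOX2 match), an intron of Esrrb (chr12:86501699-86501878, OCT4:SOX2 match), the sequence upstream of Lefty2 (chr1:180888792-180888971, OCT4:SOX2 match) and the sequence upstream of Pou5f1, which encodes OCT4 (chr17:35504744-35504923, OCT4:SOX2 match). The Klf2 region (chr8:72316168-72316347) has only a GATA6 match in the window, and the Tet1 region, in an intron (chr10:62897019-62897198), has an ESRRB match followed by an OCT4:SOX2 match. The last 2 had the largest falls in accessibility: an intergenic region nearest to Six4 (chr12:73086025-73086204, OCT4:SOX2 then GATA6 match) and an intron of Ntn1 (chr11:68394003-68394182, GATA6 match).
Sox2 +18.2 kb: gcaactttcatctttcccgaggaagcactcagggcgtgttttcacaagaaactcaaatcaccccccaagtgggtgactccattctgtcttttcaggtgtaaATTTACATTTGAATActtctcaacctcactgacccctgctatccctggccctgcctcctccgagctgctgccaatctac
Esrrb +31.7 kb: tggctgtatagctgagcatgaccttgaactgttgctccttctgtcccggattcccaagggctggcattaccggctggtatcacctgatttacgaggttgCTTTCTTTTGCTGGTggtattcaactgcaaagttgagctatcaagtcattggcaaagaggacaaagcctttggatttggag
Lefty2 -4.2 kb: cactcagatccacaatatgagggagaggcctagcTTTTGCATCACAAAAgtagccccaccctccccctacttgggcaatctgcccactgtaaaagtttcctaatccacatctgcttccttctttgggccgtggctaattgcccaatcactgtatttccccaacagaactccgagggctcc
Pou5f1 -1.2 kb: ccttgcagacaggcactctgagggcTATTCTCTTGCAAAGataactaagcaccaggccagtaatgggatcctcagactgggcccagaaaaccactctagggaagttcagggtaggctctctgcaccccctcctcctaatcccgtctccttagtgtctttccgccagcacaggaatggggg
Klf2 -2.8 kb: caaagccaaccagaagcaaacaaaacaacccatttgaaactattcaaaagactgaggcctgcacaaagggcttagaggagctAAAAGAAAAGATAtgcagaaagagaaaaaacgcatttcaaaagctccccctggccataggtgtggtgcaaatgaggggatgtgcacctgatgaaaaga
Tet1 +2.0 kb: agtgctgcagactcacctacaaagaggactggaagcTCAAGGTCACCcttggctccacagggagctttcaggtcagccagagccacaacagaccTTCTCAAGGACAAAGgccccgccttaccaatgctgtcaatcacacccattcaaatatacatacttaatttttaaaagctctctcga
Six4 +27.3 kb: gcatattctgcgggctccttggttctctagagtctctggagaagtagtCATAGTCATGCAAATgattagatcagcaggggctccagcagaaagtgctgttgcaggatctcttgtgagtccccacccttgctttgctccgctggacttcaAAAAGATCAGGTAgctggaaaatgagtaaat
Ntn1 +6.7 kb: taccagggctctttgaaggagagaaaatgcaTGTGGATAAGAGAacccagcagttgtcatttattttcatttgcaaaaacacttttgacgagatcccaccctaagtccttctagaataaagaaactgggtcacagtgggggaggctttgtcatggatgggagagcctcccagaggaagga

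Beside all regions, the set was rich in strong matches to the OCT4:SOX2 matrix and poor in strong matches to the GATA6 matrix. An OCT4:SOX2 match was deposited for 830 of the 916 regions (90.6%), beside 71.5% of all 42403 regions. Matches at or above the median best score of all regions were held by 71.4% of the set and by 35.7% of all regions. A GATA6 match was deposited for 644 regions (70.3%) beside 89.7% of all regions, and at or above the median score for 14.5% beside 44.9%. ESRRB matches occurred in 43.8% of the set and 36.3% of all regions, and SOX17 matches in 69.2% of both. The 3045 Transient PTF-bound regions without SOX17 of the moderate and closed classes held an OCT4:SOX2 match in 95.3% and a GATA6 match in 88.1%. Matches at or above the median score were held by 73.4% (OCT4:SOX2) and 37.7% (GATA6) of these 3045 regions. In 2236 other regions of the accessible class the shares with any match were 57.0% and 71.9%. At or above the median score they were 29.0% and 18.9%. Strong OCT4:SOX2 matches were thus as common in the less accessible Transient regions, and strong GATA6 matches were also scarce in other accessible regions. Since the rule asked for PTF binding and for a GATA6 cluster, these shares describe the set and were not tested.

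The OCT4:SOX2 match also lay closer to the point of highest GATA6 binding in the set than over all regions. Its centre was a median of 53 bp from the GATA6 summit in the set and 119 bp over all regions, whereas the GATA6 match was 115.5 bp away in the set and 51 bp over all regions. Of the 587 regions with both matches, the OCT4:SOX2 match was the nearer one in 362 (61.7%), beside 35.7% of the 27674 regions of the whole table with both. In the Transient PTF-bound regions of the moderate and closed classes the median distances were 62 bp (OCT4:SOX2) and 83 bp (GATA6). In 34 accessible PTF-bound regions without SOX17 of the Early&Constant cluster they were 69 and 75.5 bp. In the 2236 other regions of the accessible class they were 126 and 92 bp. A near OCT4:SOX2 match was thus shared by these PTF-bound sets. The ESRRB match lay at 137 bp in the set and 140 bp over all regions. The plot of match positions shows the OCT4:SOX2 peak of the set over the summit and its lower, broader GATA6 curve.

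**Figure D1:**
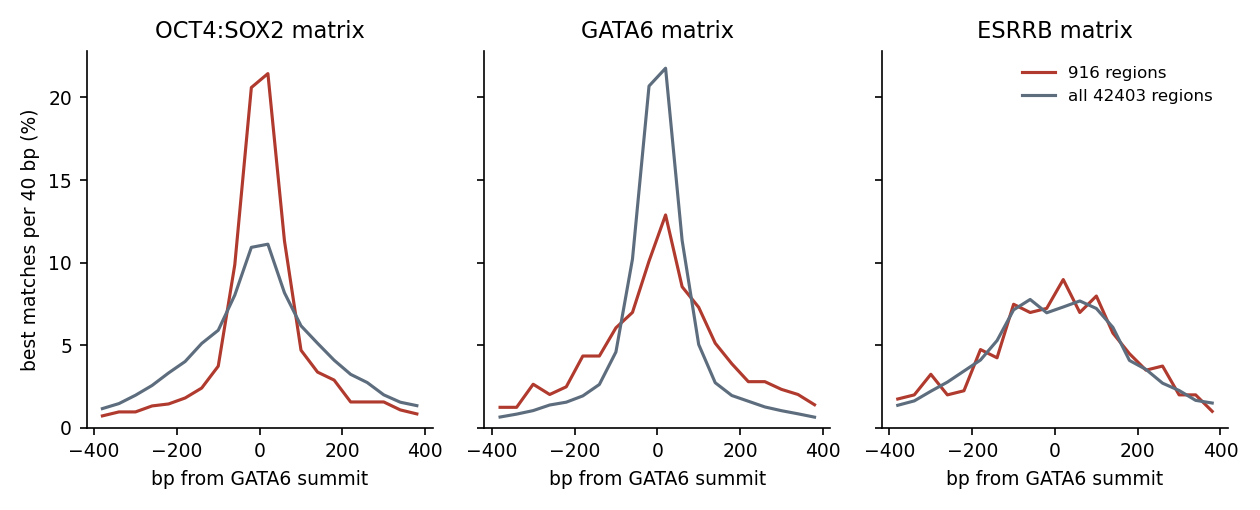
Position of the best deposited motif match relative to the GATA6 summit (x axis, bp) as the percent of matches per 40 bp (y axis), for the 916 regions and for all 42403 regions. In the set the median distance was 53 bp for OCT4:SOX2, 115.5 bp for GATA6 and 137 bp for ESRRB.

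Exact words gave the same order in the 180-base windows, searched on both strands. The octamer ATGCAAAT was found in 84 windows of the set (9.17%) and in 2.83% of all windows. The GATA word AGATAAG was found in 45 (4.91%) and in 27.1% of all windows. The ESRRB word TCAAGGTCA was found in 18 (1.97%) beside 1.06%, and the SOX word CCATTGT in 60 (6.55%) beside 8.47%. No word contains another, but the SOX word can overlap the octamer neighbourhood of a composite element. In the less accessible Transient PTF-bound regions the octamer was found in 8.90% and the GATA word in 17.1%. These are letter matches, and no binding is read from them.

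Most of the regions lay away from gene starts. By the position of the GATA6 summit in GENCODE M21, 430 were intergenic, 387 intronic, 81 within 1000 bp of an annotated transcript start (called promoter here), 16 in a UTR or non-coding exon and 2 in a coding exon. The promoter share was 8.84% beside 7.93% of all regions. In the deposited classes of ES cell histone marks, 535 regions (58.4%) were active enhancers beside 11.2% of all regions, and 148 (16.2%) were promoters beside 6.88%. Another 112 (12.2%) were primed enhancers beside 16.9%, and 98 (10.7%) poised enhancers beside 14.6%. The class heterochromatin_const held 18 (1.97%, beside 10.2%) and the class naive 5 (0.546%, beside 18.0%). None was of the class heterochromatin_fac, which held 22.3% of all regions. Active enhancers were 23.1% of the less accessible Transient PTF-bound regions. They were 41.2% of the 34 accessible PTF-bound regions without SOX17 of the Early&Constant cluster. GATA6 binding was deposited as decreased on Oct4 knockdown at 28 regions (3.06%, beside 6.25% of all regions) and as unchanged at the other 888, while it was deposited as increased at 8.57% of all regions. Joining regions within 20 kb gave 888 loci, 25 of them with 2 or more regions, so the regions were spread over the genome.

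Day 0 accessibility chose the regions, and its values are given without a test. The median day 0 average was 0.361 RPM in the set (quartiles 0.255 and 0.505), or 0.610 RPM per kb at a median width of 568 bp, beside 0.0777 RPM over all regions. The limits of the accessible class were not stated, and neither RPM nor RPM per kb separated it from the moderate class. The lowest day 0 averages in the set belonged to narrow intronic regions nearest to Adora2b (chr11:62215156-62215387, 0.107 RPM), Usp29 (chr7:6760358-6760592, 0.109 RPM) and Agps (chr2:75869922-75870153, 0.110 RPM). The highest averages among Transient PTF-bound regions of the moderate class belonged to wide regions nearest to Wdr6 (chr9:108585870-108588155, 1.42 RPM), Fignl1 (chr11:11821480-11823458, 1.10 RPM) and Ttc39b (chr4:83256556-83258911, 1.09 RPM). Per kb, those inside stood at 0.462, 0.466 and 0.473 RPM and those outside at 0.623, 0.555 and 0.461 RPM.

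The 5 regions with the highest day 0 averages kept a high signal through day 1 and ended at different levels. They lay 13.2 kb upstream of Tgif1, a homeodomain repressor of TGF-beta signalling (chr17:70864794-70866985, 1.90 RPM at day 0), at the promoter of the RNA-binding protein gene Hnrnpr (chr4:136309836-136311976, 1.76), 22.5 kb upstream of Gli2, a Hedgehog effector (chr1:119074780-119077368, 1.61), at the promoter of Ackr3, an atypical chemokine receptor (chr1:90202249-90203964, 1.53), and 86.0 kb from the start of Bcl2l11, which encodes the death-promoting protein BIM (chr2:128211015-128212601, 1.51). Their widths were 1587 to 2589 bp, and RPM here was not divided by width. At day 4 the averages were 0.445 RPM at Tgif1, 2.44 at Hnrnpr, 0.477 at Gli2, 1.14 at Ackr3 and 0.372 at Bcl2l11. Both promoters had their highest average at day 2 (3.25 RPM at Hnrnpr, 2.74 at Ackr3), whereas the distal regions near Tgif1 and Gli2 stood below day 0 by then (1.25 and 1.18 RPM).

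Over the time course the median of the set stood near its day 0 level at day 1 on the deposited RPM scale and then went down at day 2, to its lowest levels in the day 4 and XEN groups. The median average was 0.361 RPM (day 0), 0.325 RPM (8 h), 0.291 RPM (16 h), 0.354 RPM (day 1), 0.219 RPM (day 2), 0.0900 RPM (day 4) and 0.0953 RPM (XEN). On the log2(RPM + 0.03) scale, which understates the change of low values, the median difference from day 0 was -0.15 (8 h), -0.27 (16 h), -0.01 (day 1), -0.66 (day 2), -1.65 (day 4) and -1.58 (XEN). The day 1 value depended on scaling: it was -0.40 after median centring, -0.47 after quantile normalisation and 0.17 with 8 h as the baseline. The median over all regions went the other way, by 0.31 (day 1), 0.69 (day 2), 0.52 (day 4) and 0.40 (XEN). A median below day 0 is partly fixed by choosing regions on a high day 0 signal. The tests below therefore used no day 0 library, but the 8 h baseline does not free them of the rule. The Transient cluster was drawn from GATA6 binding at every time point, and the 8 h median was near that of day 0. How far this bears on the later calls was not tested. The regions with recovered reads and those without had day 4 medians of -1.63 and -1.68.

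The averages of single regions followed the same course. The highest of the 7 averages was that of day 0 in 385 regions, of day 1 in 346, of day 2 in 91, of 8 h in 83, of 16 h in 8, of day 4 in 2 and of XEN in 1. The lowest was at day 4 or in XEN cells in 896 of the 916. Day 4 stood more than 2-fold below day 0 in 786 regions (85.8%) and XEN in 812 (88.6%). Since a high day 0 signal chose the regions, these counts are a description only. No region stood more than 2-fold above day 0 at day 4 or in XEN cells, and 12 did at day 2. Of the 27 regions whose day 4 average was above day 0, 25 lay at a promoter.

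In single libraries the medians of the 562 recovered regions were 0.286, 0.458 and 0.240 RPM (8 h), 0.409, 0.273 and 0.199 RPM (16 h) and 0.296, 0.504 and 0.259 RPM (day 1). Later they were 0.210, 0.231 and 0.218 RPM (day 2), 0.0904 and 0.0908 RPM (day 4) and 0.0902 and 0.0923 RPM (XEN). Every 8 h library was above every day 2, day 4 and XEN library, and the 8 h, 16 h and day 1 libraries overlapped. As mean ± SD of the libraries this gave 0.328 ± 0.115 RPM at 8 h (n = 3), 0.220 ± 0.0107 at day 2 (n = 3) and 0.0906 ± 0.000282 at day 4 (n = 2), and the day 4 SD is below the worth of 1 read. The set also held a shrinking share of each library's signal in the recovered regions. It was 4.88% to 5.83% at 8 h, 4.48% to 4.74% at 16 h, 3.80% to 4.97% at day 1 and 2.09% to 2.48% at day 2. It was 1.38% in both day 4 libraries and at most 1.51% in XEN cells. This share does not depend on library size. Its 8 h and 16 h ranges did not overlap, nor did its day 1 and day 2 ranges, whereas the day 1 range overlapped with those of 8 h and 16 h. It also falls when other regions gain signal. The summed signal of all recovered regions was 2794 to 5141 RPM in the 8 h libraries, 6847 to 9757 RPM at day 2, and 6208 and 6533 RPM at day 4. A lower signal can come from fewer cells with the region open or from less opening per cell, which bulk ATAC-seq cannot tell apart.

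**Figure D2:**
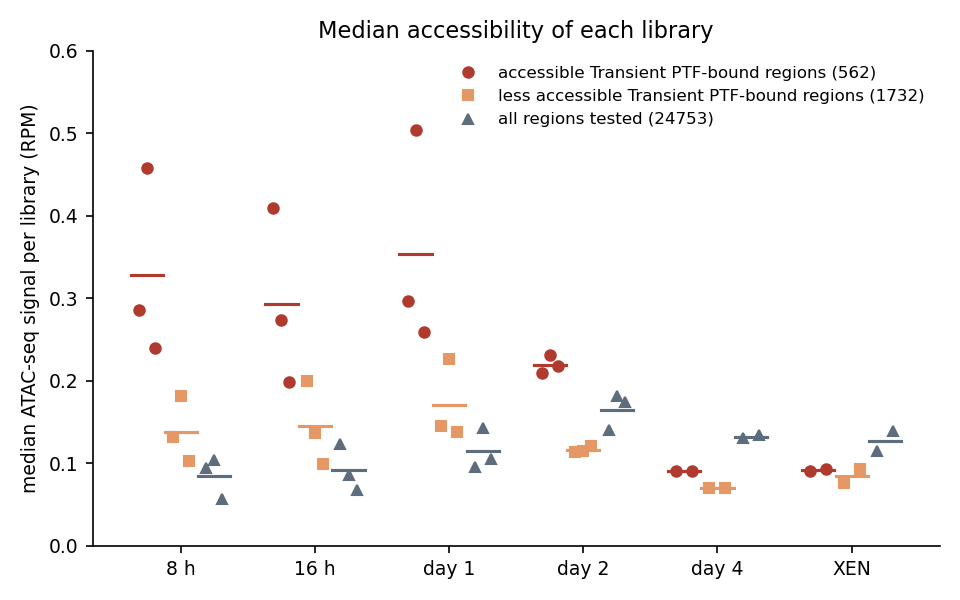
Median ATAC-seq signal (RPM, y axis) of each recovered library by group (x axis) for the accessible Transient PTF-bound regions, the less accessible Transient PTF-bound regions and all regions tested. Points are libraries and bars are group means, and the set had a mean of 0.328 RPM at 8 h and 0.0906 RPM at day 4, while the median of all regions tested was 0.0847 RPM at 8 h and 0.132 RPM at day 4.

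Single regions were tested with limma on log2(RPM + 0.03) across all 24753 recovered regions, and a region was called at a Benjamini-Hochberg adjusted p under 0.05 and a log2 change above 1 in size. At 16 h against 8 h, 0 of the 562 regions were called lower and 0 higher, beside 0.00404% of all tested regions in each direction. At an unadjusted p under 0.05, limma gave 11 lower (1.96%) and 2 higher (0.356%), beside 1.60% and 4.48% of all tested regions. At day 1, 1 was called lower, beside 0.0162% of all tested regions, and 2 higher, beside 5.46%. By day 2 the set and the other regions had parted: 91 were called lower (16.2%), beside 1.15% of all tested regions, and 11 higher (1.96%), beside 36.9%. At day 4, 413 were called lower (73.5%), beside 6.59%, and 2 higher, beside 30.5%. The median change was -1.42 at day 4, with 80% of the set between -2.08 and -0.47, and 0.51 over all tested regions. The 8 h libraries did not overlap with and stood above both day 4 libraries at 491 regions (87.4%), beside 14.6% of all tested regions.

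The scale of the libraries bore on these counts. All tested regions had a median log2 change of 0.67 at day 2 and 0.51 at day 4 against 8 h, and median centring, which sets that shift to 0, called 357 regions of the set lower and 1 higher at day 2, beside 13.6% and 14% of all tested regions. At day 4 it called 505 lower and 0 higher, beside 15.6% and 16.2%. With a pseudocount of 0.15 RPM, 207 were called lower at day 4, beside 1.96% of all tested regions. The day 2 count rested in part on the library 8 h b, without which 43 were called lower, beside 0.489% of all tested regions.

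The fall went on between day 2 and day 4. Against day 2, 241 regions (42.9%) were called lower at day 4, beside 8.75% of all tested regions, and 0 higher, beside 2.02%, and limma gave 0 higher at an unadjusted p under 0.05 too. The median change was -0.94, beside -0.23 over all tested regions. Of the recovered accessible Early&Constant PTF-bound regions without SOX17, 7 of 18 (38.9%) were called lower, with a median change of -1.01. Called lower were also 20.1% of the recovered other regions of the accessible class and 15.5% of the less accessible Transient PTF-bound regions. Each of these sets had 0 called higher, so falls without rises were not particular to the set. With only 2 libraries at day 4, leaving either out lowered the count of the set more than leaving out any other library did. Those fits had 1 day 4 library. Leaving out day 2 b or day 2 c gave 134 and 148, beside 3.47% and 4.10% of all tested regions. Of the 413 regions called lower at day 4 against 8 h, 86 had been called lower at day 2. Of all tested regions, at most the 1.15% called lower at day 2 against 8 h can have both calls.

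XEN cells, which were never induced here, had low accessibility at the same set. Against 8 h, 422 regions (75.1%) were called lower, beside 8.23% of all tested regions, and 0 higher, beside 24.3%, with 1 higher at an unadjusted p under 0.05. The median change was -1.40, and 347 regions were called lower both in XEN cells and at day 4, a count from 2 comparisons that share the 8 h libraries. Of all tested regions, at most the 6.59% called lower at day 4 can have both calls. Strain and LIF differed along with the cell type and cannot be told apart from it. Without the shallow XEN library 359 regions were called lower.

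The distributions of day 4 changes at promoters and at other regions of the set, plotted below, overlapped in range but had medians of -0.32 and -1.46. Changes in other sets are given for comparison. Of the 1732 recovered less accessible Transient PTF-bound regions, 513 (29.6%) were called lower at day 4 and 2 higher (0.115%), with a median change of -0.70. Of the 18 recovered accessible regions of the Early&Constant cluster with PTF and no SOX17, 11 (61.1%) were called lower and 0 higher. Their median change was -1.07. Calls of higher at day 4 were thus rare in these PTF-bound sets too. Of the 1420 recovered other regions of the accessible class, 214 (15.1%) were called lower and 227 higher, with a median change of 0.46. In XEN cells 22.0%, 55.6% and 33.6% of these sets, in that order, were called lower, and 4, 0 and 15 regions higher. These groups started from different levels, 0.154, 0.607 and 0.507 RPM at day 0, and the differences between them and the set were not tested.

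**Figure D3:**
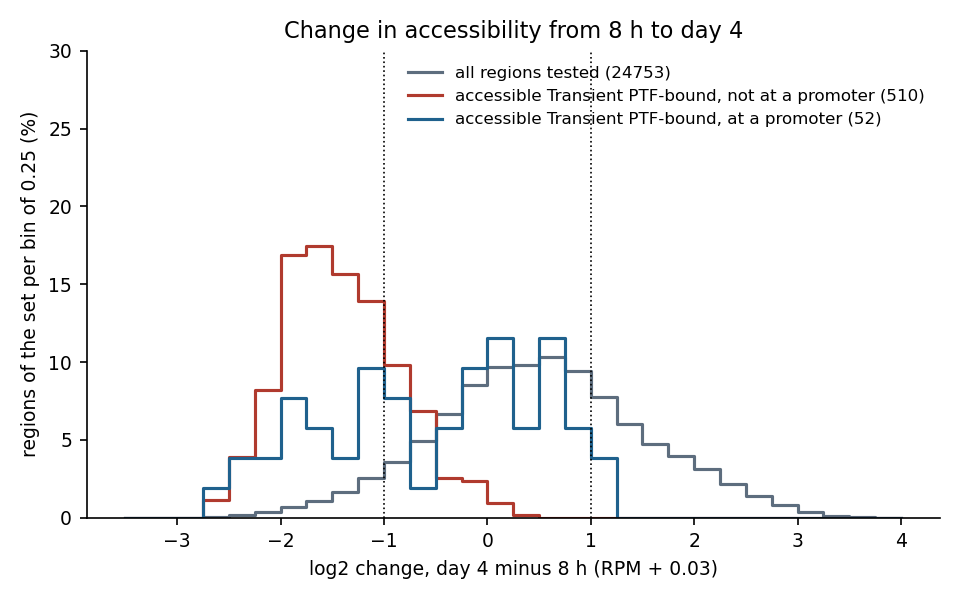
Log2 change from 8 h to day 4 (x axis) as the percent of each set per bin of 0.25 (y axis), for 510 regions of the set away from promoters, 52 at promoters and all 24753 regions tested. Dotted lines mark the call limits of -1 and 1, and the medians were -1.46, -0.32 and 0.51.

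Promoter regions of the set had higher medians than the rest in every group, with overlapping changes. The 81 promoter regions had median averages of 0.468 RPM (day 0), 0.528 RPM (day 1), 0.561 RPM (day 2), 0.259 RPM (day 4) and 0.172 RPM (XEN). The other 835 had 0.348, 0.339, 0.207, 0.0861 and 0.0924 RPM in the same groups. In single libraries the 52 recovered promoter regions had medians of 0.410, 0.646 and 0.351 RPM at 8 h, 0.505, 0.674 and 0.574 at day 2, 0.309 and 0.310 at day 4, and 0.198 and 0.139 in XEN cells. The day 2 range overlapped with that of 8 h, whereas both day 4 libraries were below all 3 of 8 h. At day 2, 7 of the 52 were called higher and 4 lower, beside 4 higher and 87 lower of the 510 elsewhere. At day 4, 19 of the 52 (36.5%) were called lower, beside 394 of the 510 (77.3%), and in XEN cells 35 (67.3%) beside 387 (75.9%). The difference between promoters and the rest was not tested.

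**Figure D4:**
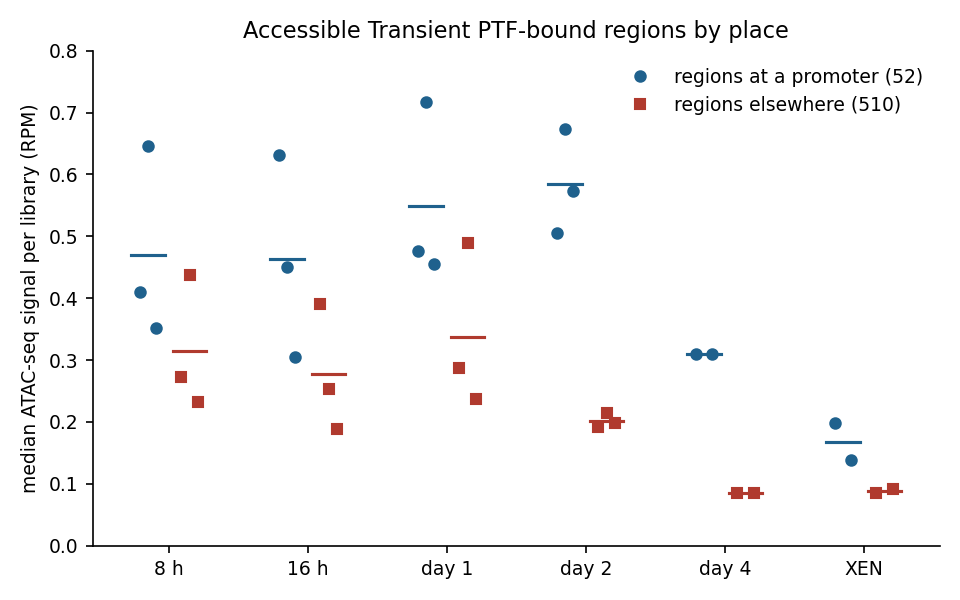
Median ATAC-seq signal (RPM, y axis) of each recovered library by group (x axis) for the 52 promoter regions and the 510 other regions of the set. Points are libraries and bars are group means, which for promoters were 0.469 RPM (8 h), 0.584 RPM (day 2) and 0.309 RPM (day 4), and elsewhere 0.314, 0.202 and 0.0855.

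The loss was found in every class of ES cell marks with more than a few regions. At day 4, 262 of 331 recovered active enhancers were called lower (79.2%), 50 of 60 primed enhancers (83.3%), 48 of 66 poised enhancers (72.7%), 8 of 11 regions of the class heterochromatin_const and 42 of 91 promoters by marks (46.2%). Median changes were -1.54 at active, -1.42 at primed and -1.33 at poised enhancers, and -0.88 at promoters by marks. Active enhancers started from 0.381 RPM at day 0, and primed and poised ones from 0.266 and 0.243 RPM. Regions whose GATA6 binding decreased on Oct4 knockdown had a median day 2 change of 0.06 against 8 h, beside -0.43 with unchanged binding. At day 4, 13 of 17 (76.5%) were called lower, beside 400 of 545 (73.4%) with unchanged binding.

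Motif content went with modest differences. Regions with an OCT4:SOX2 match at or above the median score were called lower at day 4 in 317 of 413 (76.8%), those with a weaker match in 66 of 96 (68.8%) and those without a match in 30 of 53 (56.6%). Their median changes from day 0 to day 2 were -0.72, -0.56 and -0.17, and from 8 h to day 2 -0.46, -0.24 and 0.06. The shares called lower at day 2 against 8 h were nearly the same, at 16.5%, 15.6% and 15.1%. In XEN cells they were 77.2%, 66.7% and 73.6%, and at day 4 against day 2 they were 41.9%, 50.0% and 37.7%. Regions with a strong GATA6 match were called lower in 73 of 89 (82.0%), but they were wider and started higher, at 0.497 RPM beside 0.291 RPM without a GATA6 match. With the octamer word in the window, 42 of 56 were called lower, and 371 of 506 without it. None of these differences was tested, and regions of different motif content also differed in width.

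The 8 regions with the largest falls ended with day 4 averages of 0.0232 to 0.118 RPM. The region with the largest fall, 27.3 kb from the start of the homeobox gene Six4 (chr12:73085773-73086613), whose sequence opens the last pair above, stood at 0.642, 1.08 and 0.622 RPM at 8 h, 0.520, 0.486 and 0.431 at day 2, 0.0804 and 0.102 at day 4, and 0.128 and 0.208 in XEN cells. All day 4 and XEN libraries were below all day 2 libraries, and the day 4 change was -2.71 (SE 0.39, limma adjusted p = 3.3e-10). The Ntn1 intron (chr11:68393779-68394486; Ntn1 encodes the guidance cue netrin-1) went from 0.300, 0.550 and 0.271 RPM at 8 h to 0.176, 0.284 and 0.0773 at day 1 and 0.0251 and 0.0374 at day 4. It was the region called lower at day 1 (log2 change -1.02, limma adjusted p = 0.045), a call that was lost in 12 of 16 fits without 1 library and with either other pseudocount, and its day 4 change was -2.66. An intron of Sgo2b, which encodes a shugoshin (chr8:63929485-63930074), fell by 2.64 on the log2 scale, and an intron of Cdh3, which encodes P-cadherin (chr8:106515846-106516385), fell by 2.62. The other 4 were an intergenic region 60.9 kb from Ccn6 (-2.60), a region at the start of the non-coding gene Gm44107 nearest to Shq1 (-2.50), one 2.3 kb upstream of Mcf2l (-2.50), and an intron of Nav2 (-2.48). Of these 8, 7 were active enhancers by marks and the Sgo2b intron was a primed enhancer.

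Both regions called higher at day 4 were promoters. The promoter of Brpf1, which encodes a scaffold of histone acetyltransferase complexes (chr6:113306042-113306811), stood at 1.07, 2.12 and 1.08 RPM at 8 h, 2.36, 3.67 and 2.86 at day 2, 2.50 and 2.99 at day 4, and 2.78 and 1.99 in XEN cells. Its day 4 libraries were above all 8 h libraries, with a change of 1.00 (SE 0.40, limma adjusted p = 0.029). The promoter of Hsd17b11, a hydroxysteroid dehydrogenase gene (chr5:104021840-104022414), went from 0.441, 0.700 and 0.313 RPM at 8 h to 1.42, 2.05 and 1.71 at day 2 and 0.935 and 1.11 at day 4, with a day 4 change of 1.10 (SE 0.40, limma adjusted p = 0.016). Neither call was made after median centring, where the count was 0, and leaving out single libraries gave counts of 0 to 5.

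The 11 regions called higher at day 2 and the 2 called higher at day 1 were named after their values were seen. At day 2, 7 of the 11 were promoters: those of Brpf1 and Hsd17b11, of Axin2, a feedback inhibitor of Wnt signalling (1.08), of Pgm2l1 (1.10) and the nicotinic receptor gene Chrna9 (1.53), and of the non-coding genes D730050B12Rik (1.21) and 1700011C11Rik (1.19). The other 4 lay in introns of Tcf7l1, which encodes a repressor of Wnt target genes (1.14), and of Ube2k, a ubiquitin-conjugating enzyme gene (1.23), 70.3 kb upstream of Ryr2 (1.01) and 103.5 kb upstream of Ptch1, the Hedgehog receptor gene (1.08). The Ptch1 region reversed: it stood at 0.253, 0.329 and 0.242 RPM at 8 h, 0.441, 0.715 and 0.712 at day 2 and 0.0904 and 0.0428 at day 4, and was the 1 region called higher at day 2 and lower at day 4. The 2 called higher at day 1 lay in an intron of the non-coding gene 1110002J07Rik (1.20) and in an intergenic stretch far from Sema3d (1.14), and both were called lower at day 4 (-1.03 and -1.18).

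Several regions lay near genes of the pluripotency network. Of 31 listed pluripotency genes, 14 had a region of the set within 50 kb of a transcript start, 18 regions in all. Over all 31513 annotated genes, 5.48% had one. Of the 16 with recovered reads, day 2 gave 2 calls, day 4 gave 12 and XEN gave 15, and each of these calls was lower than 8 h. These shares, 12.5%, 75% and 93.8%, stood beside 16.2%, 73.5% and 75.1% of the set, and the difference was not tested. The median change of the 18 averages from day 0 to day 4 was -1.66, beside -1.65 over the set. Of 14 listed genes of LIF and FGF signalling, 2 had a region (1 each), and of 18 listed endoderm genes none had one. The lists were chosen with earlier results of these data known.

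Among the core factors, the Nanog promoter (chr6:122707247-122707684) stood at 0.314, 0.639 and 0.247 RPM at 8 h, 0.157, 0.176 and 0.174 at day 2, 0.0402 and 0.0695 at day 4, and 0.0867 and 0.0693 in XEN cells. All day 2 libraries were below all 8 h libraries, and it was called lower at day 2, just past the size limit (-1.005, limma adjusted p = 0.0083), and at day 4 (-2.26, SE 0.38, limma adjusted p = 5.9e-08). Esrrb held 2 intronic regions. The one 31.7 kb downstream of its start (chr12:86501313-86502276) went from 0.473, 1.17 and 0.627 RPM at 8 h to 0.398, 0.381 and 0.324 at day 2 and 0.0754 and 0.144 at day 4, a day 4 change of -2.44. The one at 28.9 kb (chr12:86498634-86499341) changed by -1.92. The Pou5f1 region (chr17:35504679-35505611) and the Sox2 region (chr3:34668498-34668833) had no recovered reads, so only their averages are known. Pou5f1 went from 0.744 RPM at day 0 to 0.609 at day 1, 0.337 at day 2 and 0.226 at day 4, and Sox2, which encodes the partner of OCT4, from 0.361 to 0.271, 0.107 and 0.0313 RPM.

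Regions near naive pluripotency factors were called lower at day 4 as well. The region upstream of Klf2, a Krüppel-like factor gene (chr8:72315857-72316655), went from 0.581, 1.18 and 0.646 RPM at 8 h to 0.288, 0.343 and 0.329 at day 2 and 0.156 and 0.166 at day 4, and was called lower at both times (-1.18 and -2.06). The intron of Tfcp2l1, a naive state regulator (chr1:118642575-118643195), changed by -0.27 at day 2, which was not called, and by -1.79 at day 4. The region near Zfp42, which encodes the ES cell marker REX1, changed by -1.44 at day 4, and that near Mycn, which supports ES cell proliferation, by -1.98. The Tet1 intron, in the gene of a 5-methylcytosine oxidase, had 0.202, 0.315 and 0.252 RPM at 8 h, 0.360, 0.515 and 0.375 at day 1 and 0.106 and 0.0908 at day 4, and was called lower at day 4 (-1.14) but not at day 2 (0.37). Its day 1 libraries were all above its 8 h libraries, but the day 1 change of 0.65 was not called.

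The 3 regions around Tbx3, a T-box factor gene of the naive state, differed from each other. Their day 4 changes were -1.06 for the region 9.0 kb from its start and -1.59 for the one at 39.0 kb, both called, and -0.50 for the one at 11.0 kb, which was not called (limma adjusted p = 0.31). The latter stood at 0.502, 0.639 and 0.413 RPM at 8 h, 0.690, 0.996 and 0.915 at day 2, 0.307 and 0.406 at day 4, and 0.163 and 0.162 in XEN cells. All 3 were called lower in XEN cells.

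Lefty1 and Lefty2, which encode inhibitors of Nodal signalling, shared 2 regions. The one upstream of Lefty2 (chr1:180887932-180889384) went from 1.11, 1.91 and 1.12 RPM at 8 h to 1.15, 0.776 and 0.809 at day 2 and 0.276 and 0.273 at day 4 (-2.16, SE 0.40, limma adjusted p = 6.2e-07). The one upstream of Lefty1 (chr1:180924594-180925070) changed by -1.82 at day 4. Neither region was called lower at day 2.

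The regions at Dppa5a, an ES cell RNA-binding protein gene, and near Utf1, an ES cell chromatin factor gene, included 2 with day 4 averages above those of 8 h. The Dppa5a promoter (chr9:78368049-78368481) had 0.422, 0.653 and 0.361 RPM at 8 h, 0.634, 1.12 and 0.925 at day 2, 0.603 and 0.508 at day 4, and 0.0659 and 0.0462 in XEN cells. It was not called at day 4 (0.24, limma adjusted p = 0.64) and was called lower in XEN cells (-2.53, SE 0.40, limma adjusted p = 5.9e-09). The region 1.4 kb upstream of Dppa5a had 0.202, 0.385 and 0.218 RPM at 8 h and 0.111 and 0.134 at day 4, which did not overlap. Its change of -0.93 (limma adjusted p = 0.036) was short of the size limit of 1. The Utf1 region, at the start of the non-coding gene Gm16201 (chr7:139949501-139950712), had 0.863, 1.22 and 0.703 RPM at 8 h, 1.07 and 1.00 at day 4, and 0.593 and 0.439 in XEN cells, and was called at neither.

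For the signalling lists, the region upstream of Etv4, an ETS factor gene induced by FGF signalling (chr11:101787446-101787952), had 0.192, 0.197 and 0.0997 RPM at 8 h, 0.0393, 0.0524 and 0.0726 at day 2, and 0.0905 and 0.0588 at day 4. It was called lower at day 2 (-1.16, limma adjusted p = 0.0014) and missed the size limit at day 4 (-0.86). The intron of Fgfr2, an FGF receptor gene (chr7:130264463-130265154), changed by -0.05 at day 4 and was called lower in XEN cells (-1.17). The map of averages orders these 20 regions by their day 4 change.

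**Figure D5:**
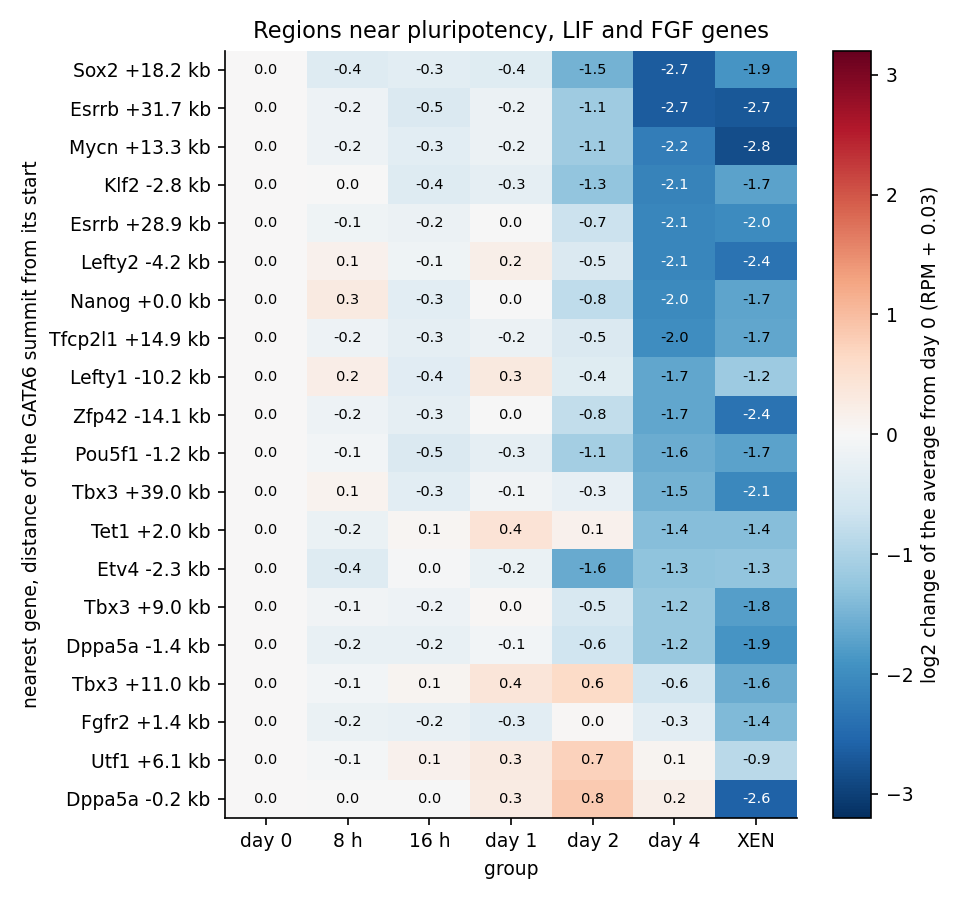
Log2 change of the group average from day 0 (color, RPM + 0.03) for the 20 regions of the set within 50 kb of a listed pluripotency, LIF or FGF gene (rows, nearest gene and distance) in the 7 groups (columns). The changes at day 4 ran from -2.67 near Sox2 to 0.19 at the Dppa5a promoter.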

How the data were processed

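ATAC-seq was analysed in 20 samples of 7 groups. Per the labels, the authors used bcl2fastq, cutadapt, Bowtie2 and SAMtools with the mm10 build, and their methods shift reads for Tn5, keep short fragments and count them in peaks with bamsignals. Short fragments favour nucleosome-free DNA, so a region occupied by stable nucleosomes can read low. A high value does not show that nucleosomes are absent. The paper found a nucleosome signal at the GATA6 summit of accessible PTF-bound regions and describes these nucleosomes as fragile. The deposited values are RPM, averaged by the authors over the libraries of a group, with 1 read apparently added per region. The authors' motif score (FIMO) and their classes, which have no unit, were used as deposited. The accessible class has no stated limits. The deposited siOct4 class rests on the authors' DESeq2 test of GATA6 binding. A further 52 columns of other assays were not used.

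Group averages carry no spread. Where all 7 averages had more than 12 significant digits, whole reads of 16 libraries were recovered as the whole numbers that give each average within 1e-07 reads, and 100% of these regions were decoded. No label ties a recovered library to a sample. The recovery was known from earlier work on these data, and the test was planned for recovered libraries. The members and lists were chosen with earlier results of these data known.

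limma 3.58.1 (R 4.3.3; trend and robust, Benjamini-Hochberg) was fitted to log2(RPM + 0.03) of all recovered regions and 6 groups, without day 0 and without further filter. Recovery and fit were tested on simulated data. Alternatives were other pseudocounts, centring, quantile normalisation, a filter, limma without trend and robust, and leaving out each library. Regions were placed by the GATA6 summit with GENCODE M21, and sequences were read from RefSeq's GRCm38.p6. Named were, at day 4 against 8 h, the 8 largest falls and up to 5 largest rises among called regions, the 5 highest day 0 averages, 3 regions on either side of the class limit, and regions within 50 kb of listed genes, at most 3 per gene. Depth limits single values: a median of 17 to 113.5 reads per region of the set in 15 libraries and 4 in the shallow XEN library.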

Additional observations from a re-analysis of the deposited data

How the results depend on the processing

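No paired analysis was possible because the recovered libraries carry no replicate numbers. With a pseudocount of 0.15 RPM, the counts of regions called lower became 0 (day 1), 8 (day 2), 207 (day 4) and 218 (XEN) against 8 h, and 89 (day 4 against day 2), and those called higher became 0 (day 1), 5 (day 2) and 0 (day 4). The shares of all tested regions fell too: called lower were 0% (day 1), 0.0646% (day 2), 1.96% (day 4), 3.14% (XEN) and 2.90% (day 4 against day 2). Called higher were 0.727% (day 1), 19.7% (day 2) and 13.9% (day 4). With a pseudocount of 0.006 RPM, 0 were called lower at day 1, beside 0.0283% of all tested regions. Median centring called lower 1 (16 h), 3 (day 1) and 357 (day 2), and 0 higher at day 1, 1 at day 2 and 0 at day 4. Quantile normalisation called 1 lower at 16 h, 10 at day 1, 403 at day 2 and 128 at day 4 against day 2, and 0 higher at day 1, day 2 and day 4. Of all tested regions it called, in that order, 0.311%, 0.465%, 10.3% and 2.88% lower and 1.21%, 11.6% and 16.3% higher. Leaving out each library gave 0 to 1 lower and 0 to 18 higher at day 1, 43 to 136 lower and 6 to 31 higher at day 2, 337 to 454 lower and 0 to 5 higher at day 4, 46 to 262 lower at day 4 against day 2, and 334 to 475 lower and 0 to 1 higher in XEN cells.

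The median change from day 0 kept its sign in the day 2, day 4 and XEN groups under every alternative. The day 1 median, -0.01, did not: it lay between -0.47 (quantile normalisation) and 0.17 (8 h as the baseline), and was -0.40 after median centring, 0.0056 at a mean of at least 0.1 RPM and 0.0085 over recovered regions. In the later groups, in the order named, the median was -0.74, -1.92 and -1.81 with a pseudocount of 0.006 RPM, -0.46, -0.9995 and -1.004 with 0.15 RPM, -1.49, -2.20 and -2.07 with median centring, -1.55, -2.19 and -2.12 with quantile normalisation, and -0.48, -1.48 and -1.44 with 8 h as the baseline. At day 4 it was -1.66 at a mean of at least 0.1 RPM and -1.63 over recovered regions only. Taking the top 1 of 10 equal parts of the day 0 average in place of the class gave 749 regions, which include 440 (48.0%) of the 916. The cause of these shifts was not tested.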
